A study of Mus musculus with 14 samples.

Results

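A set of 7 genes that mark the cells giving rise to oligodendrocytes were followed through the embryonic hippocampus of 2 mouse models of Down syndrome. It holds Olig1, Olig2, Sox10, Sox8, Pdgfra, Nkx2-2 and Cspg4, and was chosen by name; for each symbol the locus with the highest mean was used. All 7 were found among the 17454 gene symbols that could be tied to a locus with a mean of at least 1, and the whole table held 59796 assembled loci. RNA was sequenced in 14 libraries of dissected hippocampus from embryos of E16 to E18. The 189N3 group (3 libraries) carries a bacterial artificial chromosome that adds 1 copy of the Dyrk1a locus and was set against 3 wild-type littermates. The Dp(16)1Yey/+ group (4 libraries) carries a duplication of the part of mouse chromosome 16 that corresponds to human chromosome 21, on 1 of its 2 homologues, and was set against 4 wild-type littermates of its own. The age of each embryo, its sex and its litter were not given in the labels, and p-values measure the spread between these libraries.

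Oligodendrocytes make the myelin of the central nervous system. Their precursors arise in several waves, first from ventral and later from dorsal progenitors, and in the forebrain they are few at these embryonic ages, with myelination starting after birth. Olig1 and Olig2 are basic helix-loop-helix transcription factors encoded side by side. Olig2 is needed to specify the lineage and is also found in ventral progenitors, and Olig1 acts in precursors and in their maturation. Sox10 and Sox8 are related SOXE factors, of which Sox10 drives the terminal program. Nkx2-2 is a homeodomain factor of ventral progenitors and maturing cells. Pdgfra encodes the receptor for the mitogen PDGF-AA, and Cspg4 the NG2 proteoglycan of the precursor surface. Several members are shared with other cells, since fibroblasts use Pdgfra, pericytes use Cspg4 and neural crest derivatives use Sox10.

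In GENCODE vM21 (GRCm38, the assembly also named mm10), Olig2 spans chr16:91225457-91228677 and Olig1 chr16:91269772-91271933, both on the plus strand and both inside the segment duplicated in Dp(16)1Yey/+ mice. The other members lie elsewhere and have 2 copies in both models: Sox10 at chr15:79154908-79165240 (minus strand), Sox8 at chr17:25565892-25570686 (minus strand), Pdgfra at chr5:75152292-75198215 (plus strand), Nkx2-2 at chr2:147177546-147194243 (minus strand) and Cspg4 at chr9:56865033-56899870 (plus strand). The set thus allows genes with an extra copy to be read beside genes of the same lineage without one.

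Sequence before the start of 4 members is shown because levels of the set varied together between libraries. Each line gives the stretch from 250 to 101 bases before the RefSeq start (GRCm38.p6), 5′ to 3′ on the strand of the gene, which for these 4 genes also lies outside the GENCODE gene. Capitals mark matches, on either strand, to the E-box CANNTG bound by basic helix-loop-helix factors or to the SOX core ACAAT; the motifs do not overlap in these windows.
Olig2 (chr16:91225300-91225449): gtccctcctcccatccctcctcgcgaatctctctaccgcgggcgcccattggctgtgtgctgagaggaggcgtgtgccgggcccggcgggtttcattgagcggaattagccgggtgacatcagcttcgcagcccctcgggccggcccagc
Sox8 (chr17:25570787-25570936): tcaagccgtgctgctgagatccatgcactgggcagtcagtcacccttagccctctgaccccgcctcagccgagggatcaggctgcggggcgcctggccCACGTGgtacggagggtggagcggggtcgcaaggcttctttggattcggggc
Pdgfra (chr5:75152001-75152150): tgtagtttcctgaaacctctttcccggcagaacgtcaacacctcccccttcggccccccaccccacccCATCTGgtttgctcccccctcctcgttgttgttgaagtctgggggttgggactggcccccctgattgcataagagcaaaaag
Cspg4 (chr9:56864854-56865003): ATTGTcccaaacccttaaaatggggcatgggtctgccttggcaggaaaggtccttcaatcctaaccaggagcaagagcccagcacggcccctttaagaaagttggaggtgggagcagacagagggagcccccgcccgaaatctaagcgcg
The window of Olig2 held neither motif. Those of Sox8 and Pdgfra held 1 E-box each, CACGTG and CATCTG, and that of Cspg4 held 1 SOX core. An E-box was found in 49.3% and a SOX core in 18.6% of the 32851 windows of the same length in the RefSeq table, so these matches are common letters and describe the sequence only. Of the 7 members 5 matched an entry of that table, the 4 shown and Nkx2-2, whose window held 3 E-boxes and 1 SOX core and is not printed because it lies inside the GENCODE gene.

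Libraries held between 20809134 and 29098454 fragments, and values are fragments per locus scaled by 1 size factor per library (normalized fragments), where 1 fragment is worth 0.816 to 1.21 units. Dyrk1a, the gene added in 189N3 mice, was higher in all 3 of these libraries (3938 to 5877) than in their littermates (2126 to 2977). A pair of features of the Dp(16)1Yey/+ comparison bears on every value below. In 3 of its transgenic libraries the genes of the duplicated segment lay a median of 0.40 to 0.69 above the littermate mean on the log2 scale, whereas in the library labelled Dp(16)1Yey/+ replicate 1 the median was 0.10. For the 189N3 libraries, which lack the duplication, the same median was -0.08, -0.09 and 0.32 in replicates 0, 1 and 2. It thus also varied between libraries without a duplication. The 4 littermates formed 2 nearly alike pairs, replicates 0 and 1 and replicates 2 and 3, whose median squared differences were 1.43 and 1.55 times that of counting noise against at least 4.11 for any other pair within a group. All 8 markers of the hippocampal field (Prox1, Zbtb20 and others) were detected, with a summed level of 9380.5 to 15963 per library.

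Per kilobase of annotated exon, Pdgfra had the highest mean level in the littermates of 189N3 mice, 80.9 normalized fragments per kb, followed by Sox8 (67.4), Olig1 (47.6), Olig2 (28.3), Sox10 (11.2), Cspg4 (8.24) and Nkx2-2 (1.69). In that order the ranges over the 3 libraries overlapped between neighbours except for Olig2 (24.7 to 33.9) above Sox10 (5.11 to 18) and Cspg4 (7.19 to 9.95) above Nkx2-2 (1.57 to 1.81). In the littermates of Dp(16)1Yey/+ mice Sox8 came first (112 per kb), then Pdgfra (52.8), with the remaining order unchanged. Nkx2-2 stayed at 0.0 to 10.1 normalized fragments in every library, below the mean of 10 required for testing, and was left out of the tests between groups. It was kept in the correlations between pairs of members. Without the filter on the mean, its log2 fold changes were -0.60 in 189N3 mice (limma, unadjusted p = 0.244) and -0.76 in Dp(16)1Yey/+ mice (limma, unadjusted p = 0.237). The other 6 members were tested.

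**Figure D1:**
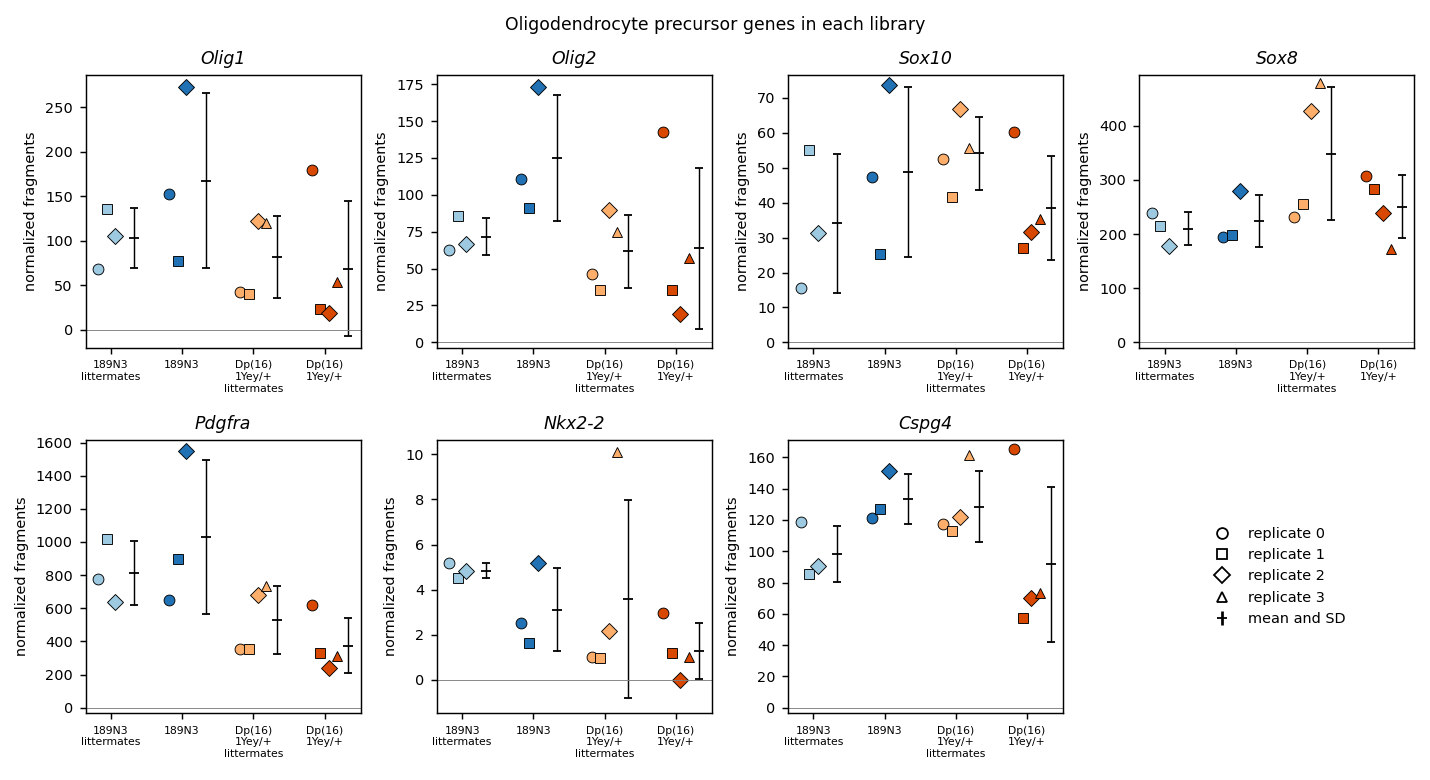
Normalized fragments (vertical axis) of each member in each of the 14 libraries, by group (horizontal axis); marker shape gives the replicate number, and the black bar beside each group is the mean with its SD. Olig1 and Olig2 reached 180.0 and 142 in Dp(16)1Yey/+ replicate 0, with the other 3 Dp(16)1Yey/+ libraries at 18.4 to 57.4.

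The question in 189N3 mice is whether an extra Dyrk1a locus alone is accompanied by a change in genes of this lineage. Olig2 measured 111, 91.4 and 173 normalized fragments in the 3 transgenic libraries and 62.4, 85.7 and 66.5 in the littermates. The groups did not overlap, and the mean was 125 ± 42.8 (SD, n = 3) against 71.5 ± 12.5 (SD, n = 3). On the log2(value + 1) scale used for all tests the difference was 0.76 ± 0.29 (SE; limma, unadjusted p = 0.0196, Benjamini-Hochberg adjusted p = 1.0 over 35899 loci). The exact two-sided permutation test gave p = 0.10, the smallest that 3 against 3 libraries allow.

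Olig1, its neighbouring partner, followed the same libraries with more spread. It measured 152, 77.5 and 273 in 189N3 mice against 68.4, 135 and 105 in the littermates, so that replicate 1 of the transgenic group lay inside the littermate range. The log2 difference was 0.57 ± 0.39 (SE; limma, unadjusted p = 0.163; exact permutation p = 0.40). Without 189N3 replicate 2, the highest library of the group, it was 0.13, and that of Olig2 was 0.50 (limma, unadjusted p = 0.0515).

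Of the surface proteins, Cspg4 measured 121, 127 and 152 in 189N3 mice and 119, 85.7 and 90.6 in the littermates. These groups did not overlap either, and the log2 difference was 0.44 ± 0.26 (SE; limma, unadjusted p = 0.104). Pdgfra measured 649, 896 and 1550 against 778, 1019 and 636, and only 189N3 replicate 2 stood above the littermates. Its log2 difference of 0.28 ± 0.31 (SE; limma, unadjusted p = 0.377) became -0.06 without that library.

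Among the SOXE factors, Sox10 measured 47.4, 25.3 and 73.7 in 189N3 mice against 15.6, 55.1 and 31.4, with overlapping groups and a log2 difference of 0.55 ± 0.45 (SE; limma, unadjusted p = 0.235), which was 0.10 without littermate replicate 0, 0.98 without littermate replicate 1 and 0.20 without 189N3 replicate 2. Sox8 measured 195, 197 and 279 against 238, 215 and 178, a log2 difference of 0.08 ± 0.25 (SE; limma, unadjusted p = 0.754) that changed sign without 189N3 replicate 2 (-0.09). Sox8 was the member whose groups lay closest together.

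In all, 1 of the 6 members tested had an unadjusted p under 0.05, Olig2, where 0.825% of all loci were higher by that measure and 1.05% lower. A further measure, groups that did not overlap, held for 2 of 6, Olig2 and Cspg4, both higher, where it held for 1.99% of all loci (2.99% lower). All 6 fold changes were positive, with a median of 0.50 against -0.04 over all loci, of which 43.8% were higher. Members varied together between libraries, so the 6 signs are not separate results. None of the 6 passed the Benjamini-Hochberg adjustment, as was true of every locus in this fit (limma, 0 of 35899, 0%; 672 loci at an unadjusted p under 0.05; edgeR on the recovered fragments called 0 and DESeq2 called 15). The lineage genes of 189N3 replicate 2 were high together, while its summed neuronal markers were also the highest of all libraries (54913 against 28327 and 46033 in the other 189N3 libraries and 35423 to 40159 in the littermates). Its summed markers of radial glia, astrocytes, pericytes, interneurons, endothelium, microglia and Schwann cells were the highest of all libraries too. Those of the hippocampal field, striatum, diencephalon, meninges, choroid plexus and erythroid cells were not. Fewer cells of a type and less RNA per cell cannot be told apart in bulk RNA.

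The question in Dp(16)1Yey/+ mice is different for Olig1 and Olig2, since these 2 genes have 3 copies there. Olig1 measured 180.0, 23.5, 18.4 and 53.3 in the transgenic libraries and 42.2, 40.6, 122 and 120.3 in the littermates. Replicate 0 was above every littermate, replicates 1 and 2 were below every littermate, and replicate 3 lay between the littermate pairs. The mean was 68.8 ± 75.7 (SD, n = 4) against 81.3 ± 46.1 (SD, n = 4). The log2 difference was -0.63 ± 0.64 (SE; limma, unadjusted p = 0.348, adjusted p = 0.909; exact permutation p = 0.457). It was -0.26 with edgeR, -0.28 with DESeq2 and -0.21 without Dp(16)1Yey/+ replicate 2.

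Olig2 showed the same arrangement. It measured 142, 35.3, 19.4 and 57.4 in Dp(16)1Yey/+ mice and 46.4, 35.6, 89.6 and 74.8 in the littermates, with means of 63.6 ± 54.8 (SD, n = 4) and 61.6 ± 24.9 (SD, n = 4). The log2 difference was -0.24 ± 0.52 (SE; limma, unadjusted p = 0.656; exact permutation p = 0.743), and it took the opposite sign with edgeR (0.02), with DESeq2 (0.01) and without Dp(16)1Yey/+ replicate 2 (0.19). No difference of either gene was larger than the spread between libraries.

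The remaining members, present in 2 copies, had lower means in Dp(16)1Yey/+ mice, none past the threshold of 0.05. Sox10 measured 60.3, 27.0, 31.6 and 35.2 in Dp(16)1Yey/+ mice against 52.5, 41.6, 66.9 and 55.6. In 3 of 4 transgenic libraries it lay below all littermates, and the log2 difference was -0.53 ± 0.27 (SE; limma, unadjusted p = 0.0786). Sox8 measured 307, 283, 239.8 and 173 against 232, 255, 427 and 479, with a log2 difference of -0.44 ± 0.27 (SE; limma, unadjusted p = 0.136).

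Pdgfra measured 618, 328, 239.8 and 314 in Dp(16)1Yey/+ mice and 352, 352, 679 and 735 in the littermates. Replicates 1, 2 and 3 lay below every littermate, replicate 0 between the littermate pairs, and the log2 difference was -0.50 ± 0.33 (SE; limma, unadjusted p = 0.152). Cspg4 measured 165, 57.6, 70.4 and 73.5 against 117, 113, 122 and 162. Replicate 0 was again above every littermate and the other 3 below every one, and the log2 difference was -0.60 ± 0.30 (SE; limma, unadjusted p = 0.0717).

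Every fold change of the 6 members was thus negative, with a median of -0.52 against 0.03 over all loci, of which 54.9% were higher. No member had an unadjusted p under 0.05, where 1.71% of all loci were higher and 1.82% lower by that measure. None had groups that did not overlap (1.72% of all loci higher, 0.736% lower). No locus passed the adjustment with limma (0 of 36024, 0%; 1273 at an unadjusted p under 0.05) or with edgeR, and 8 did with DESeq2. In Dp(16)1Yey/+ replicate 0 each of the 6 members stood above the other 3 transgenic libraries. Leaving replicate 0 out therefore lowers their fold changes by construction. Leaving out any other library gave 0 members at an unadjusted p under 0.05 (limma). Without replicate 0 none of the 6 passed the adjustment, and 4 of 6 were lower at an unadjusted p under 0.05 (7.58% of all loci). The 4 were Olig1 (log2 -1.28; limma, unadjusted p = 0.0242), Sox10 (-0.76; unadjusted p = 0.009), Pdgfra (-0.77; unadjusted p = 0.0227) and Cspg4 (-0.92; unadjusted p = 0.000991). Members varied together between libraries, so these are not separate results. Without replicate 1, the library with little excess over the duplicated segment, the 6 values ran from -0.51 for Sox8 to -0.08 for Olig2. Averaging each nearly alike pair of littermates left the fold changes of Olig1 at -0.63 and Cspg4 at -0.60, with unadjusted p of 0.438 and 0.158 by limma.

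**Figure D2:**
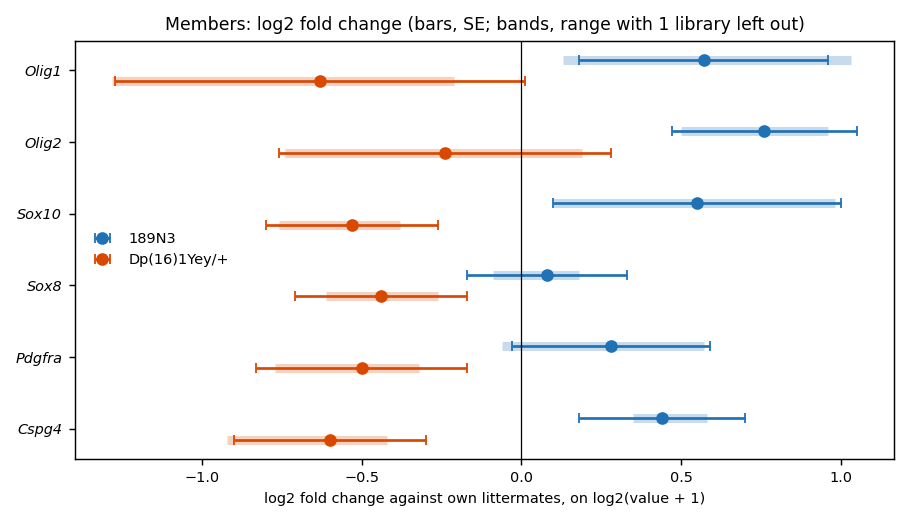
Log2 fold change of the 6 tested members against their own littermates (horizontal axis, on log2(value + 1)), with SE as bars and the range over fits that leave out 1 library as bands. All 6 values were positive in 189N3 mice (0.08 to 0.76) and negative in Dp(16)1Yey/+ mice (-0.63 to -0.24).

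The difference between the models was tested directly, as the Dp(16)1Yey/+ effect minus the 189N3 effect in 1 fit of the 4 groups. It was negative for all 6 members, from -0.52 ± 0.38 (SE) for Sox8 to -1.20 ± 0.91 (SE) for Olig1. Members varied together between libraries, so the 6 signs are not separate results. The share of all loci with a negative value was not computed. Cspg4 alone had an unadjusted p under 0.05 (-1.04 ± 0.41, SE; limma, unadjusted p = 0.022, adjusted p = 0.922), where 2.66% of all loci did and 0% passed the adjustment. Without Dp(16)1Yey/+ replicate 1 the value for Cspg4 was -0.86 (limma, unadjusted p = 0.0466). Olig2 gave -1.0 ± 0.69 (SE; limma, unadjusted p = 0.171).

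The wild-type littermates of the 2 models were compared in the same way. Sox8 was higher in those of Dp(16)1Yey/+ mice (348 ± 123 SD, n = 4, against 210 ± 30.6 SD, n = 3; log2 0.67 ± 0.27 SE; limma, unadjusted p = 0.0259, adjusted p = 0.224) and was the only member under 0.05, a level that 17.5% of all loci reached, with 0.105% passing the adjustment. Its groups overlapped (exact permutation p = 0.114). The Dp(16)1Yey/+ littermates are 2 nearly alike pairs, so n = 4 overstates the replication. Sox10 (log2 0.81) and Cspg4 (0.38) were also higher there, and Pdgfra (-0.67), Olig1 (-0.48) and Olig2 (-0.29) lower. Stock, litter and age of the 2 sets of littermates cannot be told apart.

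The position of Olig1 and Olig2 inside the duplicated segment allows a comparison with genes that share their extra copy. The segment was delimited by Lipi and Zbtb21 (chr16:75540514-97962622), and 85 named genes of it were tested in Dp(16)1Yey/+ mice. Their median log2 fold change was 0.42, beside the 0.58 that 3 copies against 2 would give, and 74 of 85 were higher. Olig1 (-0.63) had the fourth lowest value of the 85 and Olig2 (-0.24) the sixth lowest. Without Dp(16)1Yey/+ replicate 1 the median was 0.55, and Olig1 (-0.32) and Olig2 (-0.08) were the third and the fifth lowest. The ranks depended on the setting: from the lowest, they were 5 and 11 with edgeR and with DESeq2, and 10 (-0.21) and 27 (0.19) without Dp(16)1Yey/+ replicate 2. The 3 genes below Olig1 in the full comparison were Mx1 (-1.93), Mx2 (-0.85) and Kcnj6 (-0.73), of which Mx1 and Mx2 are interferon-induced and had littermate means of 15.1 and 16.8, against 81.3 for Olig1.

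The genes next to the pair were higher. Paxbp1, on the proximal side, had a log2 fold change of 0.68 ± 0.21 (SE; limma, unadjusted p = 0.00738), and Ifnar2, an interferon receptor subunit on the distal side, one of 0.56 ± 0.20 (SE; limma, unadjusted p = 0.018; groups not overlapping). Of 20 listed neighbours, 18 were measured and tested. All 18 were higher in Dp(16)1Yey/+ mice, between 0.12 for Itsn1 and 0.87 for Tmem50b, with a median of 0.56. Of the 18, 10 had an unadjusted p under 0.05 and 7 had groups that did not overlap, all higher, beside 1.71% and 1.72% of all loci. In 189N3 mice, where the segment is not duplicated, the same 18 had a median of 0.09, with 0 under 0.05 and 2 not overlapping (Tmem50b and Urb1, higher; 1.99% of all loci).

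**Figure D3:**
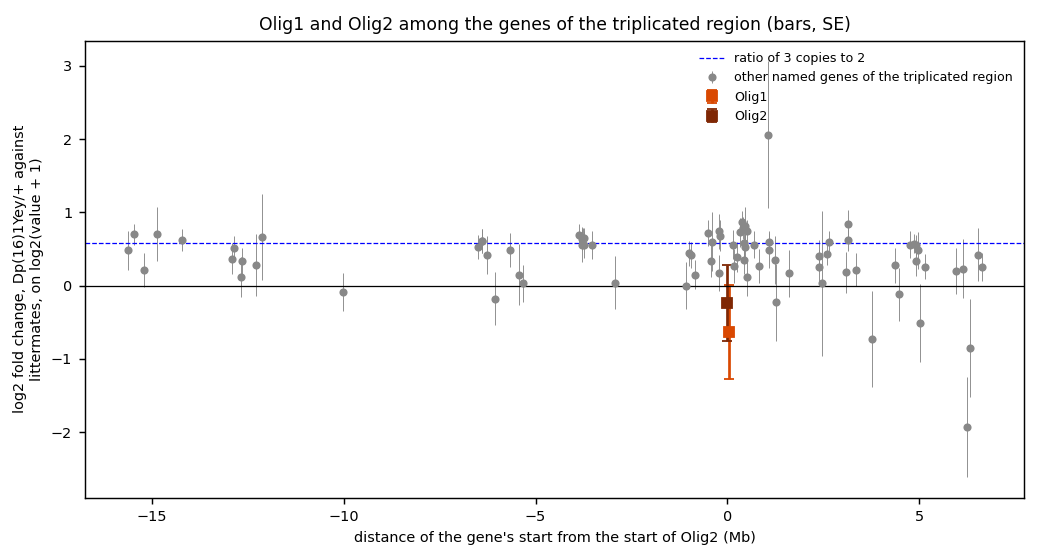
Log2 fold change in Dp(16)1Yey/+ mice (vertical axis, with SE) of the 85 tested genes of the duplicated segment, against the distance of each start from that of Olig2 in Mb (horizontal axis). The dashed line is the log2 ratio of 3 copies to 2 (0.58), and Olig1 (-0.63) and Olig2 (-0.24) stand among neighbours that were all higher.

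The libraries of the Dp(16)1Yey/+ group placed Olig1 and Olig2 apart from their segment in different ways. Relative to the littermate mean on the log2 scale, replicate 0 had a segment median of 0.69, with Olig1 at 1.33 and Olig2 at 1.29. Replicate 2 had a segment median of 0.58, with Olig1 at -1.89 and Olig2 at -1.53. Replicate 3 had 0.40, -0.41 and -0.01. Replicate 1 had 0.10, -1.55 and -0.70. The SD of log2 values of Olig1 over the 4 transgenic libraries was 1.45, the fourth highest of the 85 genes, whose median was 0.39. In the littermates it was 0.88, again the fourth highest, against a median of 0.24.

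A separate locus was assembled on the opposite strand at Olig2. It was low, with a mean of 8.06 and a range of 1.02 to 15.8 normalized fragments, and its highest and lowest libraries were Dp(16)1Yey/+ replicates 0 and 2, which were also the highest and lowest Dp(16)1Yey/+ libraries for Olig2. The strand setting of the counting was not given in the sources used here, so reads of Olig2 and of this partner may not be fully separated.

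Olig1 and Olig2 varied together across libraries. Over the 14 libraries, with group means removed, their deviations had r = 0.96 (permutation p = 1e-05, the smallest that 100000 resamples give; adjusted p = 0.00021 over 21 pairs) and rho = 0.98 (permutation p = 1e-05). The relation held without the 2 libraries farthest from the median of Olig1 (r = 0.95), within the 189N3 comparison (r = 0.95) and within the Dp(16)1Yey/+ comparison (r = 0.97). With each nearly alike littermate pair averaged, which leaves 12 points, r was 0.96. All 21 pairs of members had a positive r, and 15 passed the adjustment by r and 13 by rho, by permutation. The 15 include the pairs of Nkx2-2, a gene at 0.0 to 10.1 normalized fragments, with Olig1, Olig2, Sox8, Pdgfra and Cspg4. Without the 2 farthest libraries 10 passed. The share of other gene pairs that pass this permutation test was not computed. A positive r was the usual case in these libraries: 73.1% of 14767 other named genes had it with Olig1 and 71.9% with Olig2. An r of at least 0.5 was also common, for 43.3% with Olig1 and 38.7% with Olig2. An r of that size thus does not set the members apart from other genes. The r of Olig1 and Olig2 was rarer, since Olig1 ranked at 7 for Olig2 and Olig2 at 46 for Olig1 among named genes. The 14 libraries are not fully independent because of those alike pairs.

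Pdgfra followed Olig2 with r = 0.83 (permutation p = 5e-05, adjusted p = 0.000525; rho = 0.77, permutation p = 0.00188) and r = 0.80 without the 2 farthest libraries. Sox10 followed Olig1 with r = 0.77 (permutation p = 0.00126, adjusted p = 0.00441; rho = 0.79, permutation p = 0.00115). Cspg4 followed Olig1 with r = 0.73 over all libraries (permutation p = 0.00316, adjusted p = 0.00737; rho = 0.60, permutation p = 0.0261). That relation was 0.45 without the 2 farthest libraries, and it was 0.86 within the Dp(16)1Yey/+ comparison but -0.04 within the 189N3 comparison, so it rested on Dp(16)1Yey/+ libraries. Sox8 and Sox10, the 2 SOXE factors, had r = 0.29 (permutation p = 0.315; rho = 0.31, permutation p = 0.279).

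The genes most like the pair were not of the oligodendrocyte lineage. Of 14767 other named genes with a mean of at least 10, the highest r with Olig1 was that of Myt1l (0.995), a transcription factor of neurons, followed by Adcy1 (0.986), Smarca2 (0.979), 4833424O15Rik (0.976) and Trim9 (0.976). For Olig2 the 5 highest were Myt1l (0.970), Dync1i1 (0.970), Prokr2 (0.963), Kcnq5 (0.962) and 6330403A02Rik (0.962), and Olig1 ranked at 7. For Olig1, Olig2 ranked at 46 (r = 0.959). The remaining members ranked far lower for Olig1: Pdgfra at 1776 (r = 0.819), Sox10 at 2577 (0.771), Cspg4 at 3341 (0.725) and Sox8 at 6206 (0.516). Of other precursor genes, Gpr17 ranked at 341 (0.912) and Bcan at 6542 (0.486). These values describe 14 libraries, with group means removed, and no test was attached to them. Myt1l, at 3155 to 6983 normalized fragments, was highest in Dp(16)1Yey/+ replicate 0 (6983) and 189N3 replicate 2 (6967) and lowest in Dp(16)1Yey/+ replicate 2 (3155), the libraries with the highest and the lowest Olig1.

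**Figure D4:**
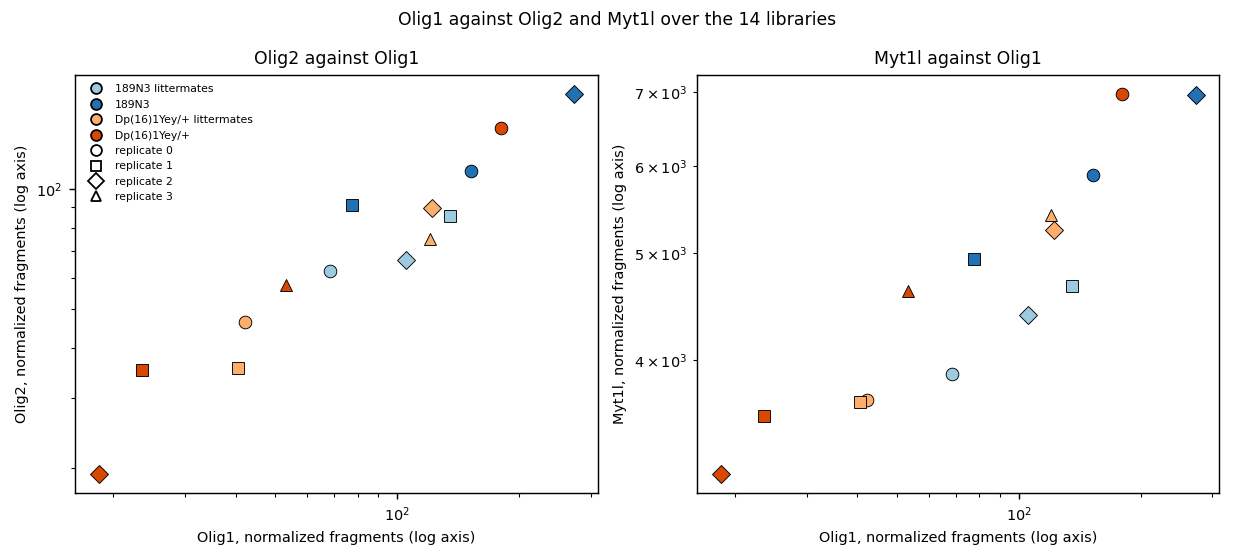
Olig2 (left) and Myt1l (right) against Olig1 in the 14 libraries, in normalized fragments on log axes; colour gives the group and shape the replicate number. Libraries with high Olig1 were high for both, from 18.4 for Olig1 beside 3155 for Myt1l to 273 beside 6967.

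Markers of other cells were read in the same libraries. The summed level of 6 neuronal markers in the Dp(16)1Yey/+ littermates was 29008 and 27906 in replicates 0 and 1 and 45264 and 47426 in replicates 2 and 3, the split seen for Olig1, Olig2, Pdgfra and Sox8. This sum rests mostly on Tubb3, at 23388 ± 8741 (SD, n = 4) in these littermates. Neurod6, the next highest, was at 9772 ± 929 (SD, n = 4), so the split of the sum mostly reflects Tubb3. In Dp(16)1Yey/+ mice the sum was 49233, 40933, 31064 and 33957 in replicates 0 to 3. The 9 striatal markers, from another part of the forebrain, summed to 454 and 472 in littermate replicates 0 and 1 and to 2805 and 2684 in replicates 2 and 3, and to 1435, 2713, 406 and 1537 in the transgenic libraries. The 9 markers of ventral telencephalon and interneurons summed to 2463 and 2334 in the first littermate pair, to 4772 and 4916 in the second, and to 4544, 3626, 2447 and 2892 in the transgenic libraries. The part of these markers in the levels of the lineage genes was not tested.

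Markers of cells that share a member with the lineage were also read. Meningeal and fibroblast markers (7 of 8 found, all at a mean of at least 10) summed to 1209 to 2222 in 189N3 mice and 2043 to 5714 in their littermates, the opposite order to the means of Pdgfra; 3 of the 7 were lower at an unadjusted p under 0.05 (1.05% of all loci) and none higher. In the Dp(16)1Yey/+ comparison they summed to 499 to 2953 in transgenic and 499 to 1207 in littermate libraries, and 2 of the 7, Col1a1 (log2 1.98) and Col1a2 (1.39), were higher at an unadjusted p under 0.05 (limma; 1.71% of all loci). By sign, 5 of the 7 were higher and 2 lower, with a median log2 fold change of 0.44. Without Dp(16)1Yey/+ replicate 1, the library with the sum of 2953, that median was -0.04. Pericyte markers (7 of 7 found) summed to 2539 to 3921 in 189N3 mice against 2908 to 3249 in littermates, and to 1524 to 2311 in Dp(16)1Yey/+ mice against 1903 to 2091 in littermates. Of the 6 Schwann cell and neural crest markers, Foxd3 and Gfra3 had means of 0.084 and 0.408, and the 2 that reached a mean of 10 were Egr2 and Sox10, itself a member, so the list gave little separate reading of these cells. Erythroid genes were lower in 189N3 mice (13751 to 21965 against 33452 to 53934), and in Dp(16)1Yey/+ replicate 1 they reached 47705 against at most 22213 in the other 3. The part of these cells in the values of the members was not tested.

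Other regulators of the lineage were read from lists of genes. No gene of these lists, or of those in the next paragraphs, passed the adjustment. At an unadjusted p under 0.05 (limma), 0.825% of all loci were higher and 1.05% lower in 189N3 mice. In Dp(16)1Yey/+ mice these shares were 1.71% and 1.82%. Groups did not overlap for 1.99% (higher) and 2.99% (lower) of all loci in 189N3 mice, and for 1.72% and 0.736% in Dp(16)1Yey/+ mice. Of 17 further transcription factors, 13 could be tested in 189N3 mice and 15 in Dp(16)1Yey/+ mice, with median log2 fold changes of -0.08 and 0.04. One, Tcf7l2, was lower in 189N3 mice (85.3 ± 14.5 SD, n = 3, against 136 ± 13.5 SD, n = 3; log2 -0.67 ± 0.25 SE; limma, unadjusted p = 0.0185; groups not overlapping). Tcf7l2, an effector of Wnt signalling in maturing oligodendrocytes, is also a marker of the thalamus. None had an unadjusted p under 0.05 in Dp(16)1Yey/+ mice, where the smallest was that of Sox5 (log2 0.46; limma, unadjusted p = 0.0549). The 9 inhibitors of differentiation tested had medians of 0.10 and -0.13 with none under 0.05 in either model. Gpr17, a receptor of committed precursors, gave 0.52 ± 0.35 (SE) and -0.84 ± 0.61 (SE), the signs shown by the members, and Jag1, a Notch ligand, had groups that did not overlap in 189N3 mice (0.34 ± 0.24, SE; limma, unadjusted p = 0.181). In the family of basic helix-loop-helix factors related to the pair, Neurog2 (-0.20 and 0.25) and Bhlhe22 (0.15 and -0.19) could be tested and had p above 0.05 in both models (limma, unadjusted).

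The 19 ligands and receptors of the precursors tested had median log2 fold changes of -0.05 in 189N3 mice and -0.18 in Dp(16)1Yey/+ mice. Pdgfa, which encodes the ligand of Pdgfra, gave 0.05 ± 0.33 (SE) and -0.18 ± 0.34 (SE), with p above 0.05 in both (limma, unadjusted p = 0.891 and 0.617). Pdgfb was lower in Dp(16)1Yey/+ mice (56.2 ± 19.2 SD, n = 4, against 88.5 ± 21.2 SD, n = 4; log2 -0.67 ± 0.26 SE; limma, unadjusted p = 0.0268), the only one of the 19 under 0.05 in either model. Egfr, which encodes a mitogen receptor of progenitors, had groups that did not overlap in 189N3 mice (log2 0.50 ± 0.25 SE; limma, unadjusted p = 0.0609).

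Of the other precursor genes 12 could be tested, with medians of 0.12 and -0.36. Tnr, the matrix protein tenascin-R, was higher in 189N3 mice (969 ± 159.6 SD, n = 3, against 649 ± 80.3 SD, n = 3; log2 0.57 ± 0.24 SE; limma, unadjusted p = 0.0284; groups not overlapping), and Ncan (0.46) and C1ql1 (-0.89) had groups that did not overlap. Bcan, the proteoglycan brevican, was lower in Dp(16)1Yey/+ mice (220.2 ± 81.9 SD, n = 4, against 332 ± 35.7 SD, n = 4; log2 -0.67 ± 0.26 SE; limma, unadjusted p = 0.027). Neurons and astrocytes also express several of these matrix genes.

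Genes of differentiating oligodendrocytes and myelin ranged widely in level. Of 16, Opalin and Fa2h had means of 0.221 and 0.12, whereas Mbp had group means of 209 to 293 and Mog of 660.1 to 786 normalized fragments. In the 2 models 10 and 9 could be tested, with medians of 0.19 and -0.11. Ermn, which encodes the cytoskeletal protein ermin, was higher in both models at an unadjusted p under 0.05: 88.5 ± 25.6 (SD, n = 3) against 55.0 ± 9.68 (SD, n = 3) in 189N3 mice (log2 0.65 ± 0.30 SE; limma, unadjusted p = 0.0454) and 60.9 ± 8.86 (SD, n = 4) against 33.5 ± 5.82 (SD, n = 4) in Dp(16)1Yey/+ mice (log2 0.85 ± 0.21 SE; limma, unadjusted p = 0.00204; exact permutation p = 0.029; groups not overlapping). Cldn11 was lower in 189N3 mice (log2 -1.51 ± 0.70 SE; limma, unadjusted p = 0.0486), a gene that meningeal cells also express. Mbp, the myelin basic protein gene, gave 0.40 ± 0.30 (SE) and -0.35 ± 0.33 (SE).

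Estimated fragments per transcript were available for the members. Olig1 and Olig2 had 1 transcript each. Of the 5 Cspg4 transcripts the most abundant (50.8% of the fragments of the gene) was higher in 189N3 mice, 74.1 against 37.1 (log2 0.92 ± 0.37 SE; limma, unadjusted p = 0.0466, where 1.38% of 60141 transcripts were higher by that measure), and lower in Dp(16)1Yey/+ mice, 38.4 against 78.4 (log2 -1.13 ± 0.43 SE; limma, unadjusted p = 0.0297, where 1.77% of 60652 were lower). Neither passed the adjustment (adjusted p = 1.0 and 0.945, limma). The other Cspg4 transcripts tested gave 0.24, -0.19 and -0.06 in 189N3 mice and 0.19 and 0.98 in Dp(16)1Yey/+ mice, none with an unadjusted p under 0.05. Pdgfra was carried by 1 of its 6 transcripts (91.3%), with log2 differences of 0.42 ± 0.35 (SE) and -0.57 ± 0.33 (SE). The 2 Sox10 transcripts took 64.6% and 35.4% of the fragments, and the second was under 0.5 normalized fragments in 7 of 14 libraries, so the split between them was not read further.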

How the data were processed

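The 14 libraries were grouped from the sample labels. The authors aligned paired reads to mm10 with TopHat and Bowtie and assembled and quantified transcripts with Cufflinks. The results text gives E17 and the methods E16 to E18; the labels list polyA RNA and the methods a stranded total RNA kit. The deposited gene table holds signal values, fragments per locus divided by 1 size factor per library; in each library 100% of nonzero values were whole multiples of its smallest step (within 0.02). The deposited signal values per transcript are estimated shares of the same fragments. Each locus was named through the map locus whose isoforms sum to it in all 14 libraries; 49069 of 49110 loci with a mean of at least 1 were matched and 17500 named. The map of symbols holds no measurements.

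Values were compared as log2(value + 1), for loci with a mean of at least 10, each model against its littermates, in limma 3.58.1 (R 4.3.3) with a trend, Benjamini-Hochberg adjustment over all loci and a threshold of 0.05. A fold change on this scale understates the change of low genes. Single genes were also tested by exact permutation (SciPy 1.17.1), which allows no p below 0.10 for 3 against 3 libraries or 0.029 for 4 against 4. Members and lists were chosen with earlier results of these data known. Named genes were the members, Dyrk1a, the genes flanking the pair, up to 4 genes per list and model with the smallest p or with groups that did not overlap, and the 5 most like Olig1 and Olig2; of these the text gives a selection. The 3 lowest genes of the segment, Bcan in the likeness ranks, Gpr17, Pdgfa, Mbp, Mog, Col1a1, Col1a2, Tubb3, Neurod6, Egr2, Opalin, Fa2h, Foxd3 and Gfra3 were named after their values were seen. Alternatives included other pseudocounts (0.1, 10), filters (none, 100), scalings, a replicate block, edgeR 4.0.16 and DESeq2 1.42.0 on recovered fragments and each library left out. Same-numbered libraries did not deviate together (correlations of -0.32 to -0.03 in the 189N3 comparison and -0.45 to -0.07 in the other). The limma test was also run on simulated counts with independent libraries and a common spread for all loci. The real libraries, with nearly alike littermates, do not match that setting, so the run says little about these data. All 14 libraries were used. Promoter sequences are from RefSeq.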

Additional observations from a re-analysis of the deposited data

Results flagged for a closer look

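The values of 2 libraries stood apart from the rest of their group of 4 libraries, by a gap to the nearest value larger than 0.829 of the range of the group, among 14 groups examined; chance flags about 1 in 20. Cspg4 measured 165 normalized fragments in Dp(16)1Yey/+ replicate 0, with the other 3 libraries at 57.6 to 73.5. Nkx2-2 measured 10.1 in littermate replicate 3 of the Dp(16)1Yey/+ comparison, with the other 3 at 0.99 to 2.16, a level of few fragments.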

How the results depend on the processing

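Of 389 values of single members, their transcripts and their pairs recomputed under other settings, 373 kept their sign and their side of the adjusted threshold, which none of the fold changes passed. Part of this agreement was fixed beforehand. The filters, the replicate block, the fit without a trend and 1 fit of the 4 groups cannot change a log2 fold change. The count is therefore not a measure of how robust the fold changes are. Among the pairs, 9 values lost an adjusted permutation p under 0.05 and 1 gained it (Sox10 and Cspg4); 6 of the 9 were without the 2 farthest libraries, 4 of these with Cspg4. Averaging the alike littermates was chosen after seeing the data for the pairs. The other 6 values changed sign: Olig2 in Dp(16)1Yey/+ mice with edgeR (0.02), with DESeq2 (0.01) and without Dp(16)1Yey/+ replicate 2 (0.19; range -0.74 to 0.19 with 1 library left out); Sox8 in 189N3 mice without 189N3 replicate 2 (-0.09) and without littermate replicate 2 (-0.03; range -0.09 to 0.18); and Pdgfra in 189N3 mice without 189N3 replicate 2 (-0.06; range -0.06 to 0.57). The cause was not tested, apart from edgeR and DESeq2 comparing mean levels where limma compares means of logs. The number of members with an unadjusted p under 0.05 in 189N3 mice, 1, ran from 0 to 3 with 1 library left out and was 0 with a filter at a mean of 100, which leaves Olig2 out, and 0 in 1 fit of the 4 groups. In Dp(16)1Yey/+ mice, 0, it ran from 0 to 4 with 1 library left out and was 1 in that joint fit. Loci past the adjusted threshold in 189N3 mice, 0, were 4 with median-ratio size factors, 15 with DESeq2 and 0 to 28 with 1 library left out (28 without littermate replicate 1); in Dp(16)1Yey/+ mice, 0, they were 8 with DESeq2 and 0 to 3 with 1 library left out (3 without Dp(16)1Yey/+ replicate 1). With the replicate number as a block 72 loci passed in 189N3 mice and 0 in Dp(16)1Yey/+ mice, and Olig2 in 189N3 mice had an unadjusted p of 0.0274 (limma); the numbers are shared labels only, since same-numbered libraries did not deviate together. Scalings moved the median of all loci by less than 0.1. Nkx2-2, at 0.0 to 10.1 normalized fragments, was too low for a comparison at this depth.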
